A study of Mus musculus with 18 samples.

Results

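The genes described here are the nuclear genes for subunits of respiratory complex I, taken as every symbol of the series count table that starts with Nduf, then 1 of the letters a, b, c, s or v, then a digit. Members also had to hold at least 30 counts over all 18 libraries, and 37 of the 46983 symbols in the table did so. No symbol with that pattern fell under the minimum. The Ndufaf assembly factors are outside the rule. The names Ndufa4 and Ndufa4l2 need care, in that Ndufa4 is now placed in complex IV and Ndufa4l2 is its paralog, with low expression here.

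Adult mice were operated on when 8 to 10 weeks old, either with the left anterior descending artery of the heart tied off to cause an infarction or with a sham procedure, and heart RNA was sequenced 6 weeks later. There were 6 groups of 3 libraries. Whole-heart total RNA came from infarcted control and infarcted Salv cKO mice. Cardiomyocyte RNA came from translating ribosome affinity purification (TRAP), in which tagged ribosomes are pulled down with their RNA, and covered control and Salv cKO mice after infarction and after sham surgery. Salv cKO is a conditional knockout of Salvador, a scaffold protein of Hippo signalling whose gene is Sav1, and the controls are called wild type by the submitters. The labels do not name the Cre driver of the deletion or the driver of the ribosome tag, nor say whether the libraries of a group came from separate animals. All p-values below therefore rest on the scatter among these libraries, which may be technical.

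Complex I is the entry point of electrons from NADH into the mitochondrial respiratory chain, and it couples their transfer to ubiquinone with the pumping of protons. Its core subunits in the matrix arm carry the flavin, the iron-sulphur clusters and the quinone pocket, the core of the membrane arm is encoded by the mitochondrial genome, and a shell of nuclear accessory subunits holds the enzyme together. Cardiac muscle is densely packed with mitochondria, and transcripts of the respiratory chain are among its abundant messages. By these roles the members were 7 core subunits (among them Ndufv1, Ndufs1, Ndufs3 and Ndufs7), 9 accessory subunits of the matrix arm, 9 of the proximal membrane arm, 10 of the distal membrane arm, and the pair Ndufa4 and Ndufa4l2.

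Library totals ran from 3240871 to 24135877 counts, so that 3 counts, used as the detection floor, stood for 0.124 to 0.926 CPM (counts scaled to a library of 1e+06). The mitochondrial genome's own transcripts took 0.202 to 0.532% of a TRAP library and 15.8 to 29.0% of a total RNA library. The defining cardiomyocyte markers held 11.9 to 14.5% of counts in TRAP libraries and 4.50 to 6.51% in total RNA, and the fibroblast markers 0.0615 to 0.171% and 0.217 to 0.481%. These are shares of all counts, mitochondrial ones included. In infarcted hearts, by the edgeR test used below, 7 of 10 cardiomyocyte markers were higher and 2 lower in TRAP. Of all genes 74.2% passed there and 34.4% were higher. Sham control library 2 and sham Salv cKO library 3 held 567 and 659 counts of Y-linked genes, against at most 7 in any other library. Sav1 itself did not separate the genotypes, with a log2 change of -0.15 (adjusted p = 0.986) in infarcted TRAP, -0.57 (adjusted p = 0.596) in sham TRAP and -0.30 (adjusted p = 0.53) in total RNA. In sham TRAP it read 7.72, 5.51 and 5.70 CPM in controls and 2.35, 0.993 and 8.76 CPM in Salv cKO. Salv cKO libraries 1 and 2, at 7 and 3 counts, were thus below every sham control. Salv cKO library 3, which has Y counts, was above every sham control, against its genotype label by this measure. Counts are by gene symbol, and the deleted part of Sav1 was not examined apart from the rest. The genotype labels were therefore not checked by Sav1.

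Some complex I genes share almost all of their coding sequence with a processed copy elsewhere in the genome, and the bases that set them apart are shown here because the copies took very different shares of counts between libraries. Ndufa12, an accessory subunit of the matrix arm, lies at chr10:94198720-94221443 (GRCm38, plus strand). Its copy Gm15920 lies at chr5:130188395-130188796 (plus strand), in an intron of Rabgef1, and is annotated as a processed pseudogene. Over 402 aligned bases they were 99.5% identical, with the substitutions A135G and T414C, counted from the A of the start codon with the base of Ndufa12 first. Ndufs5, an accessory subunit of the proximal membrane arm, lies at chr4:123712710-123718202, and its copy BC002163 at chr16:42955631-42955949 (plus strand), in an intron of Zbtb20. They were 99.4% identical over 319 bases, with T81C and A105G. Stretches of 41 bases around each substitution, with the differing base in capitals, read 5′ to 3′ in GENCODE M21 transcripts as follows.
Ndufa12, first site: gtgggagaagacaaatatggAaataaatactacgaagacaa
Gm15920, first site: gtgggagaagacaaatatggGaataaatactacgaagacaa
Ndufa12, other site: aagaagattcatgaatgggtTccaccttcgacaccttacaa
Gm15920, other site: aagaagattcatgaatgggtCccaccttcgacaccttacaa
Ndufs5, first site: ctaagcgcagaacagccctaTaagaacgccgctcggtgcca
BC002163, first site: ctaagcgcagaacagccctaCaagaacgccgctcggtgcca
Ndufs5, other site: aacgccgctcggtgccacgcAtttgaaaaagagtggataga
BC002163, other site: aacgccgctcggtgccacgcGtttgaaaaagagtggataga

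Gm15920 held 0.280 to 0.864% of the counts of Ndufa12 and its copy in all 9 control libraries. In the 6 TRAP libraries of Salv cKO hearts it held 17.2 to 25.3%. In the 3 total RNA libraries of Salv cKO hearts it held 24.7% (95% exact binomial interval 23.0 to 26.5%), 1.09% (0.597 to 1.82%) and 11.2% (9.31 to 13.4%). Libraries 1 and 3 were thus far above every control and library 2 was close to the controls, so that by this measure the library labelled Salv cKO 2 goes against its genotype label. Sav1 read 16.6 CPM in library 2, the lowest of the 6 total RNA libraries. In libraries 1 and 3 it read 25.0 and 23.3 CPM, and in controls 23.2 to 29.7 CPM. Library 2 is kept under its label below, with values without it. The intervals of the 3 libraries, which cover counting error only, do not overlap. At the level of the copy itself, infarcted TRAP libraries held 6.61 CPM in controls and 187 CPM in Salv cKO (log2 difference 4.81, adjusted p = 4.45e-08), and sham TRAP libraries 6.75 and 291 CPM (5.55, adjusted p = 9.05e-09). Whether the reads came from the copy or from Ndufa12 with other bases at those positions was not tested.

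BC002163 took its share of the Ndufs5 counts by another pattern. In TRAP libraries of infarcted controls the share was 59.1%, 62.4% and 55.2%, and in sham controls 69.6%, 63.6% and 66.6%. In infarcted Salv cKO libraries it was 98.7%, 11% and 16.3%, and in sham Salv cKO libraries 66.1%, 27.0% and 23.6%. Library 1 of each Salv cKO TRAP group therefore stood apart from the other 2, and both groups overlapped or flanked the controls. In total RNA the share was 8.11 to 20.8%. Counts for Ndufs5 alone accordingly read 3.77, 168 and 154 CPM in infarcted Salv cKO TRAP, and the sums with the copy read 279, 189 and 184 CPM. Values of Ndufs5 without its copy are uncertain for that reason. A copy of the core subunit Ndufs3, Gm12251, held 0.169 to 7.24% of the joint counts.

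**Figure D1:**
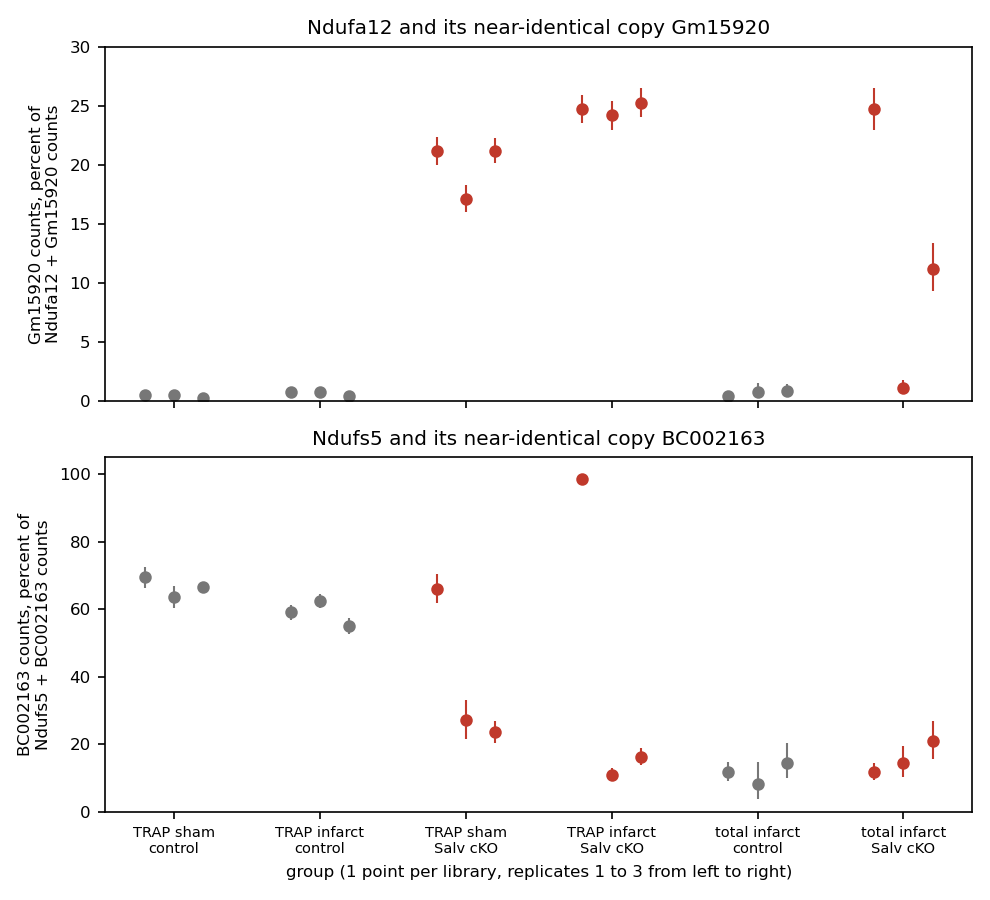
Share of joint counts held by the processed copy, in percent (y axis), for each of the 18 libraries (x axis, by group), with bars giving 95% exact binomial intervals. Gm15920 lies at 0.280 to 0.864% in all 9 control libraries and at 17.2 to 25.3% in the 6 Salv cKO TRAP libraries, while the share of BC002163 runs from 11 to 98.7% within infarcted Salv cKO TRAP.

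Levels of the members within cardiomyocyte RNA spanned a wide range. Per kilobase of the median annotated coding transcript, sham control TRAP libraries held 4.11 CPM per kb of Ndufa4l2, the lowest member, and 8588 ± 1615 (SD, n = 3) of Ndufa2, the highest, with a median over members of 1316 CPM per kb. Ndufb7, a distal membrane arm subunit, was highest in the other 3 TRAP groups, at 11524, 7029 and 5684 CPM per kb in sham Salv cKO, infarcted control and infarcted Salv cKO. In total RNA the highest member was Ndufs1, a core subunit of the module that oxidises NADH, with several iron-sulphur clusters, at 1038 and 1006 CPM per kb in controls and Salv cKO. That rank rests on the short transcripts annotated for Ndufs1: per kilobase of its longest transcript the values are 254 and 246, and Ndufb9 is highest, at 752 and 962. The members together held 5.16 to 5.23% of counts in infarcted control TRAP, 4.47 to 4.98% in infarcted Salv cKO TRAP, 5.01 to 5.83% in sham control TRAP and 5.59 to 5.70% in sham Salv cKO TRAP. Infarcted Salv cKO was the lowest group by this share and overlapped no other.

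**Figure D2:**
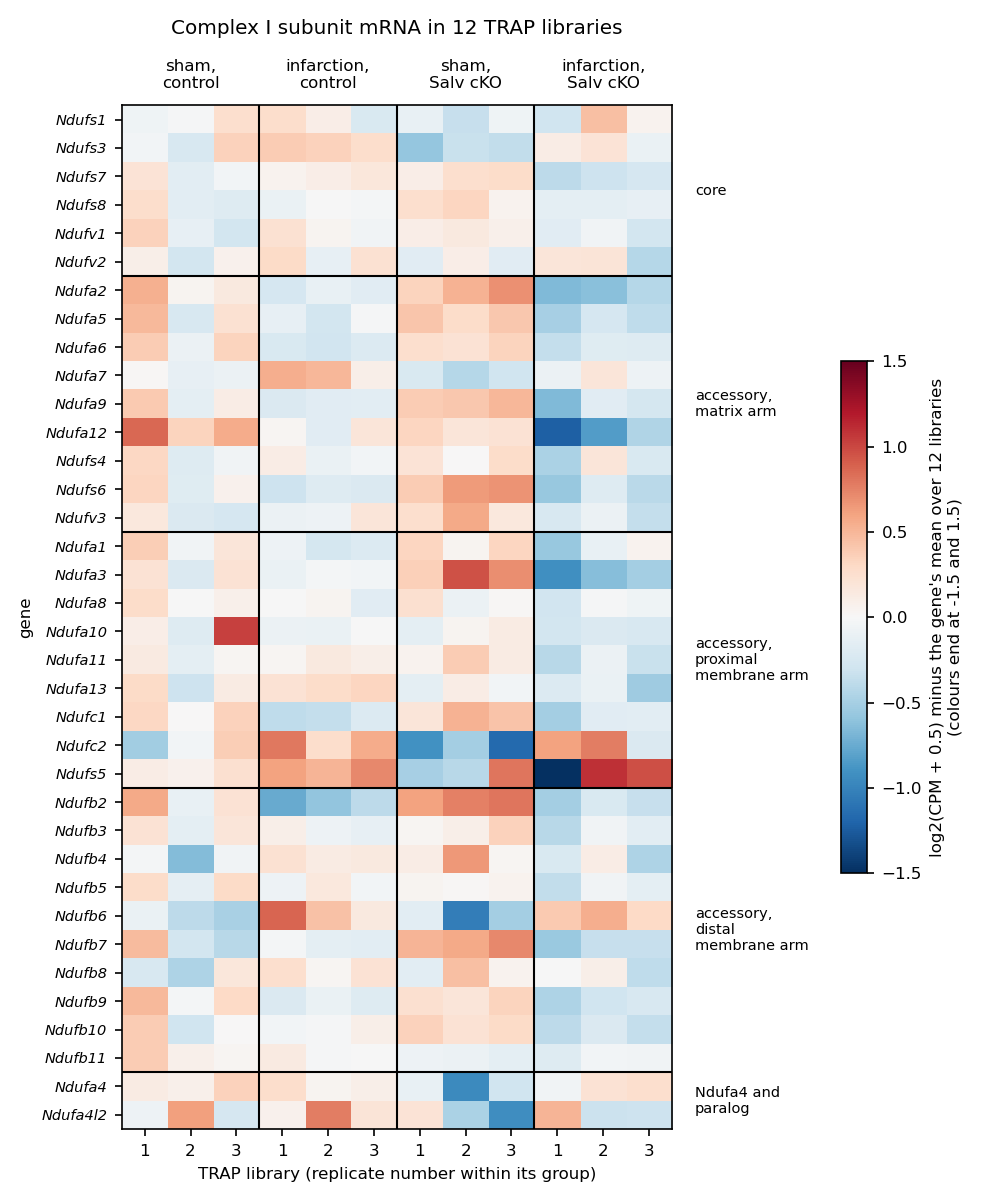
Heat map of 36 members (rows, by role) in the 12 TRAP libraries (columns, by group), coloured by log2(CPM + 0.5) minus the gene's mean over the 12 libraries, with colours ending at 1.5 in either direction. For Ndufa3 the 3 sham Salv cKO columns are the highest and the 3 infarcted Salv cKO columns the lowest, and for Ndufc2 and Ndufb6 the infarcted Salv cKO columns lie above the sham Salv cKO ones.

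Between sham and infarcted hearts of Salv cKO mice, in TRAP RNA, 20 of 37 members passed the test, 5 higher and 15 lower after infarction. The test was edgeR's quasi-likelihood test with Benjamini-Hochberg adjustment over 11393 genes and a threshold of 0.05. Over all genes tested, 18.2% passed, 7.56% higher and 10.6% lower. Groups of 3 did not overlap for 35.6% of all genes, 17.4% higher and 18.2% lower. Of the members, 26 had groups that did not overlap, 6 higher and 20 lower. The median log2 change was -0.35 over members and 0.02 over all genes. These values are scaled levels in RNA pulled down with ribosomes. Whether a lower one stems from fewer cells of a type, less RNA per cell or another source, the counts cannot tell.

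Among the matrix arm accessory subunits, 7 of 9 fell and none rose, with a median log2 change of -0.74. Ndufa2, which sits in the module that oxidises NADH, read 5190.0, 5893 and 6606 CPM in the sham Salv cKO libraries and 2600.0, 2659 and 3066 CPM in the infarcted ones. The groups did not overlap, and the log2 change was -1.09 ± 0.16 (SE; adjusted p = 1.53e-04). Ndufs6, a zinc-binding subunit needed late in assembly, read 3140.2, 3750.0 and 3838 CPM in sham and 1626, 2103 and 1829.5 CPM after infarction (log2 change -0.95 ± 0.16, adjusted p = 5.14e-04). Again every sham library was above every infarcted library. Ndufa12 read 1231, 1117 and 1150.3 CPM in sham and 423, 553 and 721 CPM after infarction, a log2 change of -1.04 ± 0.19 (adjusted p = 7.53e-04), or -0.95 (adjusted p = 0.00154) when its copy was added. Ndufa9, next to the quinone pocket, fell by 0.77 on the log2 scale (adjusted p = 0.00306) and Ndufa5 by 0.74 (adjusted p = 0.00465). Ndufv3 and Ndufa6 passed with log2 changes of -0.56 and -0.51.

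In the proximal membrane arm 3 members fell and 1 rose, of 9. Ndufa3, a small membrane subunit, read 2598, 3958 and 3307 CPM in sham Salv cKO libraries and 1073, 1306 and 1432 CPM after infarction. Its log2 change of -1.37 ± 0.18 (adjusted p = 4.9e-05) was the largest fall among members. Ndufc2, a subunit of the same arm, read 48.6, 64.2 and 40.7 CPM in sham and 139, 156 and 79.0 CPM after infarction, and its log2 change of 1.29 ± 0.27 (adjusted p = 0.00328) was the largest rise. Each separated the groups fully and in opposite directions. Ndufc1, which pairs with Ndufc2 in the enzyme, fell by 0.66 on the log2 scale (adjusted p = 0.00753), and Ndufa11 by 0.47 (adjusted p = 0.0356).

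In the distal membrane arm 4 of 10 members fell and 1 rose. Ndufb7 read 6751, 7001 and 7786 CPM in sham and 3207, 3707 and 3709 CPM after infarction (log2 change -1.02 ± 0.19, adjusted p = 9.26e-04). Ndufb2 read 1532, 1694 and 1751 CPM in sham and 704, 856 and 788 CPM after infarction (-1.08 ± 0.17, adjusted p = 3.14e-04). For both genes every infarcted library was below every sham library. Ndufb6 went the other way, from 62.0, 33.4 and 48.4 CPM to 90.7, 101 and 85.1 CPM (log2 change 0.95 ± 0.22, adjusted p = 0.00565). Ndufb10 and Ndufb9 fell by 0.60 and 0.59 on the log2 scale.

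Of the 7 core subunits, 2 rose, 1 fell and 4 did not pass. Ndufs3, a subunit of the matrix arm, rose. It read 118, 140.0 and 136 CPM in sham and 190.1, 204 and 165 CPM after infarction (0.50 ± 0.17, adjusted p = 0.0446). With its copy added the value was 0.48 (adjusted p = 0.0593). Ndufs7, holder of the last iron-sulphur cluster before ubiquinone, fell by 0.53 on the log2 scale (SE 0.15, adjusted p = 0.0162). The 4 that did not pass had log2 changes from -0.35 to 0.27, with Ndufv1, the subunit that binds NADH, at -0.27 and Ndufs1 at 0.27. Ndufa4, of complex IV, read 1051, 588 and 921 CPM in sham and 1099, 1326 and 1354 CPM after infarction (0.56 ± 0.18, adjusted p = 0.0377).

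**Figure D3:**
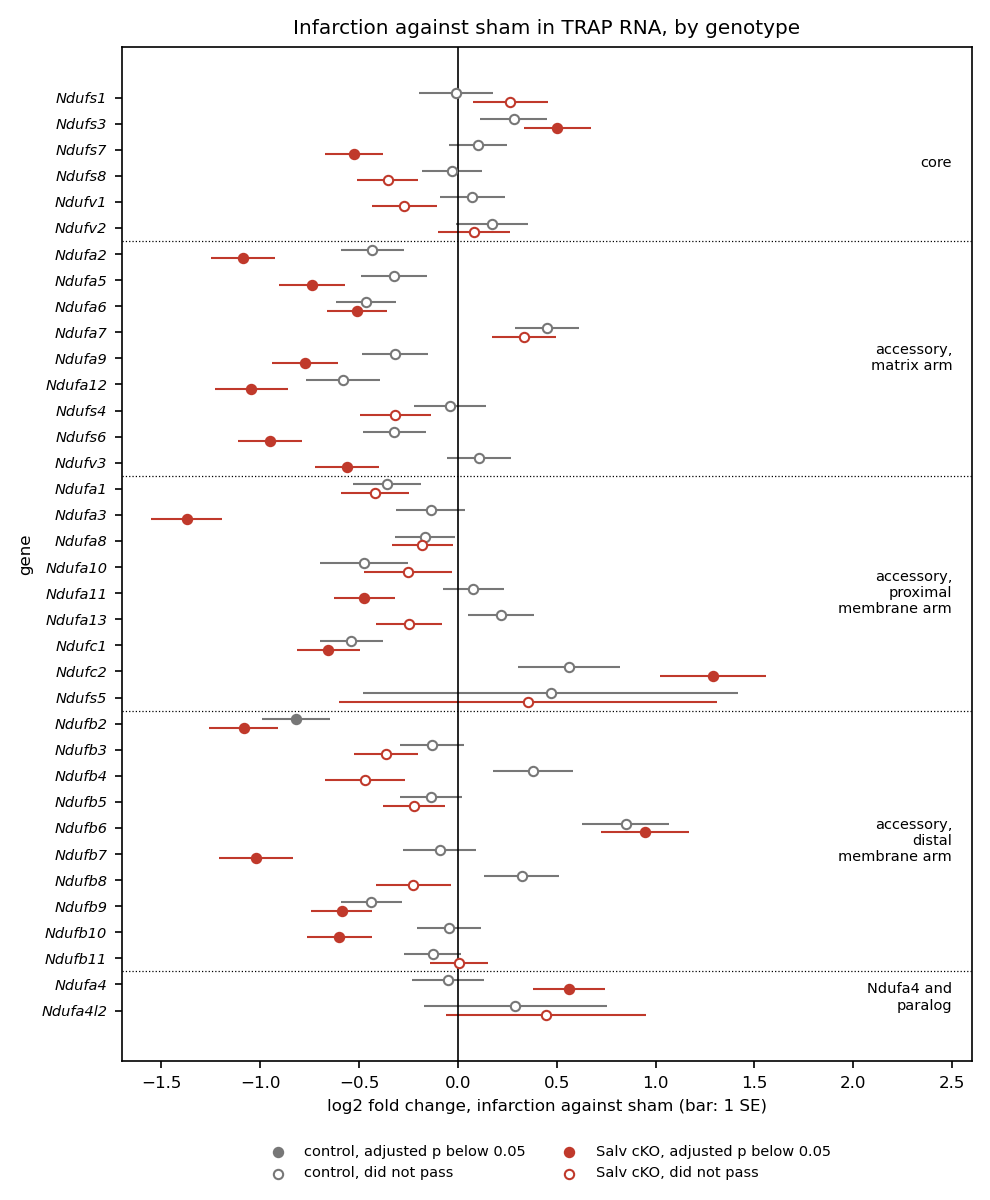
Log2 change from sham to infarction in TRAP RNA (x axis, with SE bars) for 36 members (y axis, by role), in control and in Salv cKO hearts. In Salv cKO 15 members past the threshold lie below 0, and in controls 1 member, Ndufb2, is past it.

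Of the 20 members that passed, 11 passed whichever of the 6 libraries was left out, 3 higher, among them Ndufc2 and Ndufb6, and 8 lower, namely Ndufa3, Ndufa2, Ndufb2, Ndufs6, Ndufa12, Ndufb7, Ndufa9 and Ndufa5. Without infarcted Salv cKO library 1 the count was 12, 4 higher and 8 lower. For the fits with a library left out, the share of all genes that passed is not given here. Ndufs3 passed in 1 of the 6 fits, and Ndufa4 and Ndufa11 in 2. Fibroblast markers had a median log2 change of 1.26 in the same contrast with 1 of 8 (Lum) passing, and their summed share was 0.0615 to 0.0776% in sham and 0.0741 to 0.153% after infarction. Cardiomyocyte markers had a median log2 change of -0.28, with 1 of 10 higher and 3 lower, and a summed share of 13.7 to 14.3% in sham and 11.9 to 13.4% after infarction. No marker of either list was at 0 in all TRAP libraries. Their part in the result was not tested.

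The direction of the change in Salv cKO went with the level of the gene. Level was taken from the sham control libraries, which are not in that contrast. The 15 members that fell had a median of 4494 CPM per kb there (range 495 to 8588), the 5 that rose a median of 174 (97.4 to 2814), and the 17 that did not pass a median of 910 (4.11 to 3344). At 2000 CPM per kb or more, 10 of 14 members fell and 1 rose, with a median log2 change of -0.57. Among the 59 other genes of that level 42.4% fell and 0% rose, with a median of -0.45. From 100 to 1000 CPM per kb 3 members fell and 3 rose of 14, with a median of -0.09, while among 778 other genes 30.6% fell and 8.61% rose, with a median of -0.28. Genes outside complex I also fell in a larger share at high level than at low level. The difference between members and other genes of the same level was not tested.

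**Figure D4:**
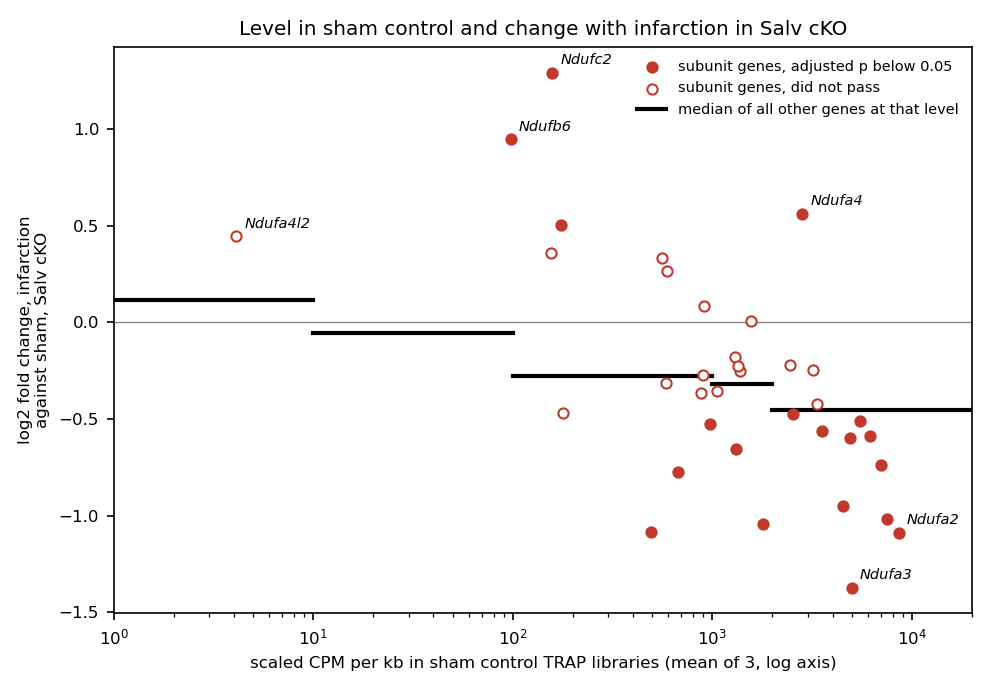
Log2 change from sham to infarction in Salv cKO TRAP RNA (y axis) against the level in sham control TRAP libraries in CPM per kb (x axis, log scale), with 1 point for each of 36 members and black bars for the median of all other genes in each level bin. The bars go from 0.12 in the lowest bin to -0.45 in the highest, and most members that fell lie at the right.

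In control hearts the same surgery was followed by a change of 1 member. Ndufb2 read 1485, 927 and 1168 CPM in sham and 593, 668 and 768 CPM after infarction, with no overlap (log2 change -0.82 ± 0.17, adjusted p = 0.0391), where 1.08% of all genes passed, 0.992% lower. Groups did not overlap for 13 members, 4 higher and 9 lower, and for 19.1% of all genes. The members' median was -0.05 against -0.02 over all genes. At an unadjusted p under 0.05 there were 11 members, where 14.1% of all genes reached that mark. Sham control library 2, a library with Y counts, was below its group mean in all but 1 of 36 members (Ndufa4l2 left out for its low level), and without it 6 members passed, all lower. The share of all genes that passed without that library is not given here. Ndufb2 passed in 2 of the 6 fits that left out a library. Ndufb6 (0.85 ± 0.22, adjusted p = 0.0591) and Ndufc1 (-0.54, adjusted p = 0.0943) came next.

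Whether infarction acted differently in the 2 genotypes was tested by the interaction of genotype and surgery. No member passed it by edgeR, nor did any of the 11393 genes (0%). At an unadjusted p under 0.05 there were 11 members, against 12.6% of all genes. DESeq2 called 3 members, and its share of all genes is not given here. The median difference in log2 change, Salv cKO minus control, was -0.23 over members and 0.05 over all genes. Without the 2 libraries with Y counts, both sham, the members' median was -0.073. Leaving out sham control library 2 alone gave -0.12, and sham Salv cKO library 3 alone -0.13. Ndufa3 had the largest value, -1.23 ± 0.25 (adjusted p = 0.0861). Its control libraries read 2365, 1748 and 2359.9 CPM in sham and 1905, 1997 and 1982 CPM after infarction, which overlap. Ndufb7 had -0.93 ± 0.26 (adjusted p = 0.198) and Ndufs7 -0.63 (adjusted p = 0.252). A difference between the genotypes in the response of complex I genes was therefore not shown, although the counts of members past the threshold were 1 and 20.

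Between genotypes after sham surgery 1 of 37 members passed, where 291 of the 11393 genes (2.55%) did, 1.19% lower. DESeq2 called 5 members, and edgeR without the low-count filter also called 5. The shares of all genes called in these other fits are not given here, so the counts stand without a background. Without the libraries with Y counts no member passed. Ndufa3 (0.61, adjusted p = 0.0629), Ndufb7 (0.62, adjusted p = 0.0725) and Ndufa4 (-0.60, adjusted p = 0.0771) did not pass. Ndufa3 read 2365, 1748 and 2359.9 CPM in controls and 2598, 3958 and 3307 CPM in Salv cKO, and every Salv cKO library was above every control. For Ndufs5 summed with its copy, the difference was -0.89 ± 0.23 (adjusted p = 0.0499), against -0.04 without the copy. At an unadjusted p under 0.05 there were 10 members, 6 higher and 4 lower, and 18.5% of all genes. Groups did not overlap for 6 members higher and 7 lower, and for 21% of all genes.

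Between genotypes after infarction, in TRAP RNA, no member passed by edgeR, where 0.334% of all genes did. At an unadjusted p under 0.05 there were 7 members, all lower in Salv cKO, against 7.36% of all genes (3.65% lower). DESeq2 called 1 member, with its share of all genes not given here. The log2 difference was below 0 for 32 of 37 members, with a median of -0.17 against 0.00 over all genes, and of -0.27 without infarcted Salv cKO library 2. Cardiomyocyte markers held 13.5 to 14.5% of counts in these controls and 11.9 to 13.4% in Salv cKO, with no overlap, and a median log2 difference of -0.10, with 7 of 10 below 0. The 4 erythroid markers tested had a median of -0.88, all below 0. Their part in the result was not tested. Groups did not overlap for 16 members, all lower, and for 14.6% of all genes (6.95% lower). Ndufa12 had the smallest p. It read 1007, 878 and 1115 CPM in controls and 423, 553 and 721 CPM in Salv cKO (-0.82 ± 0.19, adjusted p = 0.0635), and with its copy added the difference was -0.42 (adjusted p = 0.633). The share of Gm15920 moved with genotype, as given above, and this comparison depends on it. Ndufa3 (-0.63 ± 0.17, adjusted p = 0.22) and Ndufa13 (-0.54 ± 0.17, adjusted p = 0.346), a subunit also known as GRIM-19, followed.

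In total RNA of infarcted hearts the members leaned the other way, and again none passed by edgeR, where 0.255% of all genes did. At an unadjusted p under 0.05 there were 14 members, all higher in Salv cKO, against 13.8% of all genes (7.37% higher), and DESeq2 called 2. The log2 difference was above 0 for 34 of 37, with a median of 0.61 against 0.02 over all genes, and groups did not overlap for 16 members, all higher, and for 19.4% of all genes (9.46% higher). The log2 difference was lower in longer genes. Its Pearson r with log2 transcript length was -0.28 over 12516 genes and -0.38 over the members, which are short (median 704 bases). Ndufa2 read 134, 103 and 153 CPM in controls and 292, 220.1 and 208 CPM in Salv cKO (0.89 ± 0.21, adjusted p = 0.142). Ndufa3 read 47.4, 41.4 and 44.0 CPM in controls and 182, 50.0 and 40.6 CPM in Salv cKO, so that library 1 alone was high. That library was above its group mean in 35 of 36 members. Without it the members' median was 0.27 and 4 members had an unadjusted p under 0.05. Its summed cardiomyocyte markers, 6.51%, were the highest of the 6 total RNA libraries. Control library 2 stood apart the other way, above its group mean in 4 of 36 members, with the lowest cardiomyocyte share, 4.50%, and a mitochondrial share of 15.8% against 25.9 to 29.0% in the other 5 libraries. Without it the median was 0.44 and 6 members had an unadjusted p under 0.05. Without Salv cKO library 2, whose share of Gm15920 is like that of controls, the median was 0.76 and 17 members had an unadjusted p under 0.05. The shares of all genes at that mark in the fits with a library left out are not given here. Nor is the share of all genes called by DESeq2, so these counts stand without a background. By group, cardiomyocyte markers held 4.50 to 5.75% of counts in these controls and 5.91 to 6.51% in Salv cKO, with no overlap. Their median log2 difference was 0.39, with 8 of 10 above 0. The 5 erythroid markers had a median log2 difference of 1.44 in this contrast. The part of either marker list in the result was not tested.

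The interaction of genotype and RNA fraction compares these genotype differences directly. None of 37 members passed by edgeR, where 0.43% of all genes did, 20 had an unadjusted p under 0.05, all more negative in TRAP, against 14.8% of all genes (8.71% lower), and DESeq2 called 5. Without a low-count filter 11 members passed, and without total RNA control library 3 there were 5. The shares of all genes that passed in these other fits are not given here. The median was -0.82 over members and -0.04 over all genes. It was -0.44 without total RNA Salv cKO library 1, the high library of the comparison above, -1.02 without library 2 of that group, whose share of Gm15920 is like that of controls, and -0.48 with length and GC trends removed. Ndufa2 had -1.30 ± 0.30 (adjusted p = 0.0558) and Ndufs7 -1.16 (adjusted p = 0.0927). For Ndufs5 summed with its copy the value was -1.61 ± 0.34 (adjusted p = 0.0383).

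TRAP RNA held far more complex I message than total RNA of infarcted hearts. Of 37 members 35 were higher in TRAP and none lower, where 74.2% of all genes passed and 34.4% passed as higher. Groups did not overlap for 33 members, all higher, and for 53.1% of all genes (25.7% higher). The median log2 difference was 2.82 over members and -0.15 over all genes. By role it was 1.51 for core subunits, 3.61 for the matrix arm, 2.83 for the proximal and 3.10 for the distal membrane arm. Ndufb7 read 94.4 to 247 CPM over the 6 total RNA libraries, with group means of 166 and 5228 CPM, and was 32.3-fold higher in TRAP (log2 difference 5.01). Ndufa3 had the largest log2 difference, 5.33, and Ndufs6 had 4.90. Ndufs3 had the smallest that passed, 0.75 (adjusted p = 1.36e-05). Ndufs1 (-0.08) and Ndufa4l2 (0.28) did not pass. Ndufs1 read 451 to 682 CPM in total RNA and 393 to 665 CPM in TRAP, which overlap throughout.

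**Figure D5:**
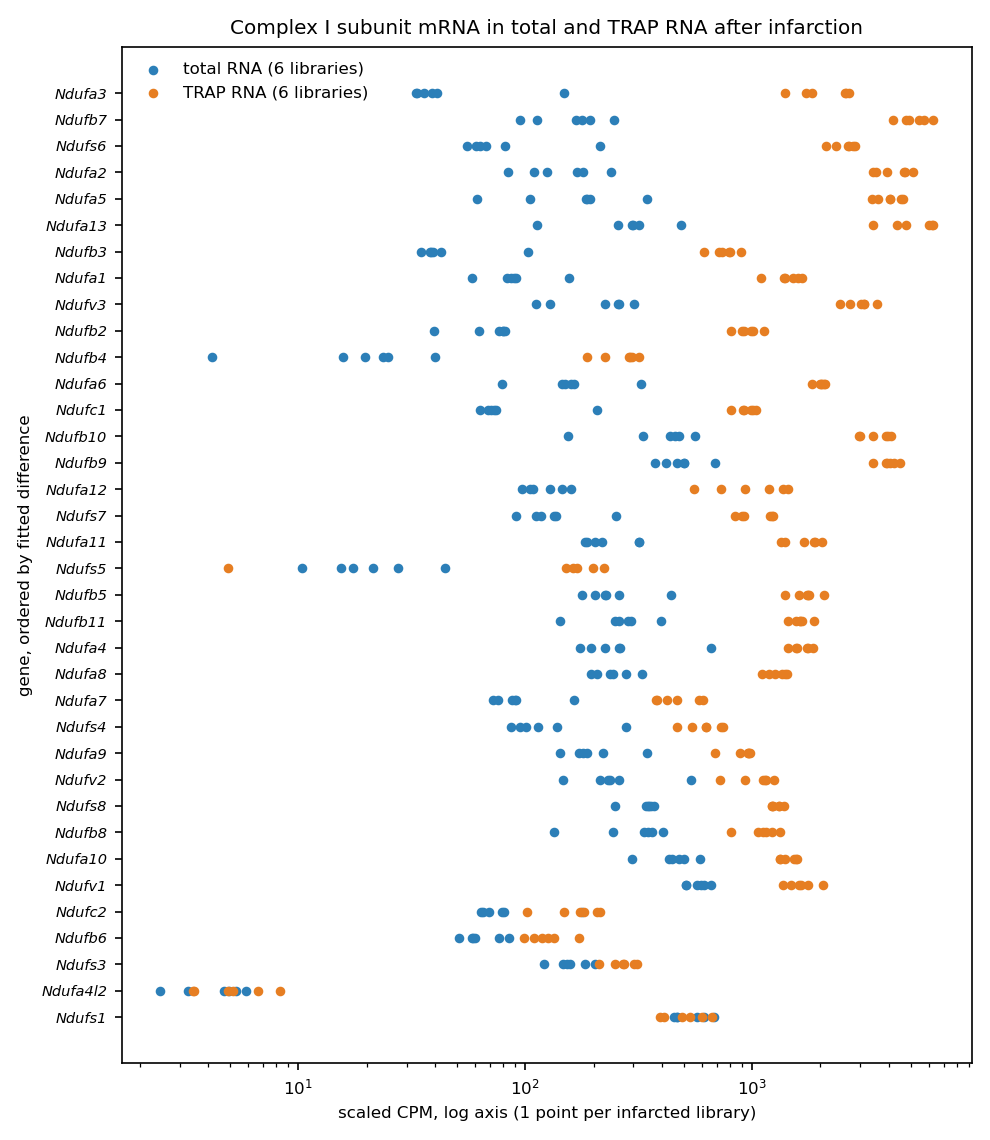
Level of 36 members in CPM (log axis) in the 6 total RNA and the 6 TRAP libraries of infarcted hearts, with 1 point for each library and the members ordered by the fitted difference. The TRAP points of Ndufb7 average 5228 CPM and its total RNA points 166 CPM with no overlap, while the points of Ndufs1 overlap.

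Members are short, with a median of 704 bases for the coding transcript against 2124.5 over all genes tested, and short genes as a whole were higher in TRAP. At up to 500 bases the median log2 difference was 2.19 over all genes and 3.79 over 4 members, from 500 to 750 bases 0.64 and 2.83 (15 members), from 750 to 1000 bases 0.48 and 2.61 (11 members), and from 1000 to 1500 bases 0.35 and 1.60 (6 members). After trends on length and GC content were removed, the members' median was 1.996 and 34 passed, counted in either direction. In that fit Ndufa4l2 was lower in TRAP, at -0.64. Ndufs1 passed in 1 of 8 other settings, over which it ran from -0.82 to -0.069. The share of all genes that passed with the trends removed is not given here. The core subunits of the membrane arm, encoded in mitochondria and not translated on the tagged cytosolic ribosomes, went the other way: 5 of 6 tested were lower in TRAP, with a median of -5.66. Of 16 assembly factors, 11 were higher and 3 lower, with a median of 0.60. Ndufaf2 (2.91) and Ecsit (2.72) were highest and Acad9 (-2.11) lowest.

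Other genes of the complex are given here for infarction in Salv cKO hearts, where 7.56% of all genes rose and 10.6% fell. Of the mitochondrial core subunits, mt-Nd1 (-0.83, adjusted p = 0.0219) and mt-Nd5 (-0.67, adjusted p = 0.0219) fell from sham to infarction in TRAP RNA, of 6 tested. These transcripts are not translated on the tagged ribosomes. All mitochondrial transcripts together held 0.383 to 0.532% of counts in sham Salv cKO TRAP and 0.269 to 0.346% after infarction. The part of this shift in the 2 values was not tested. Of 16 assembly factors Foxred1 (0.93) and Chchd4 (0.76) rose and Ecsit (-0.76) fell, shares of 12.5% and 6.25% that are near those of all genes. Of 12 regulators of nuclear respiratory genes 3 rose (25% of the list) and 1 fell (8.33%). Esrra, a nuclear receptor of energy metabolism genes, rose from 28.1 to 67.3 CPM (1.26, adjusted p = 7.50e-04), Nrf1, the nuclear respiratory factor, from 3.36 to 9.57 CPM (1.54, adjusted p = 0.0129) and Esrrb by 0.84. Ppargc1b, a coactivator of such receptors, fell by 1.65 on the log2 scale, from 380 to 121 CPM.

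Promoters of 32 of the 37 members were matched to RefSeq (GRCm38.p6). In the 250 bases before the start, on both strands, the NRF1 motif (GCGCA, any base, then GCGC) was found in 6 of them (18.8%) and in 4.23% of 27025 genes. The 6 were Ndufa8, Ndufs5, Ndufa5, Ndufs6, Ndufb4 and Ndufa11. The ETS motif CCGGAAG was found in 3 (9.38%, all genes 7.83%), TATAAA in 4 (12.5%, all genes 14.3%), and the ERR motif TCAAGGTCA and YY1 motif AAGATGGCG in 0 (all genes 0.422% and 0.711%). The median GC content was 57.6% for members and 52.4% for all genes. A match is a description of the letters only. Of the 6, Ndufs6, Ndufa5 and Ndufa11 fell after infarction in Salv cKO hearts, where 15 of all 37 members fell. Ndufa8, Ndufs5 and Ndufb4 did not pass. Shown here, with the motif in capitals and read 5′ to 3′ on the strand of the gene, are 60 bases around the motif in 3 members that fell after infarction in Salv cKO hearts: Ndufs6 at chr13:73328483-73328542 (minus strand), Ndufa5 at chr6:24527682-24527741 (minus strand) and Ndufa11 at chr17:56717677-56717736 (plus strand).
Ndufs6: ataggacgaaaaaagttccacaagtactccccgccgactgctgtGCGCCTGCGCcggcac
Ndufa5: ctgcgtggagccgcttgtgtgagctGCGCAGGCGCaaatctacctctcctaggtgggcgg
Ndufa11: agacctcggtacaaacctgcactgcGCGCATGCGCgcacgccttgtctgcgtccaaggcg

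Several members overlap other annotated genes, among them Ndufb5 with Mrpl47 (616 bases), Ndufs1 with Ino80dos (489 bases), Ndufa13 with Tssk6 (375 bases), Ndufb6 with Smim27 (257 bases) and Ndufb2 with Gm16272 and Braf (156 and 146 bases). Whether the counting used strand is not given in the sources used here, so reads of these stretches may be shared.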

How the data were processed

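Each deposited file lists unnormalised read counts by gene symbol for 1 library, and the authors' table of the whole series repeats them. Reads came from an Ion Proton, with STAR 2.5, DESeq2 and mm10 named per the submitters' processing notes. For the counter, the annotation and the strand of counting, each is not given in the sources used here. The members and gene lists were chosen with earlier results of these data known.

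Counts were fitted in R 4.3.3 with edgeR 4.0.16 (TMM scaling, low-count filter, robust quasi-likelihood test, limma 3.58.1), in 3 fits: 12 TRAP libraries (11393 genes), 6 total RNA libraries (12945 genes) and 12 infarcted libraries (13267 genes). The number of comparisons was 8, with p-values adjusted by Benjamini-Hochberg over all genes of a fit and a threshold of 0.05. SE is the log2 change divided by the root of the F value. CPM are scaled by TMM. Levels from separate fits are not compared. Levels per kilobase used the median coding transcript length of GENCODE M21. The named genes are members that passed and those with the smallest p in each comparison, and scripts were tested on simulated data. Depth is 3240871 to 24135877 counts a library, and 3 counts stand for 0.124 to 0.926 CPM.

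Alternatives were DESeq2 1.42.0, its size-factor scaling, no filter, a replicate block, groups fitted alone, no mitochondrial rows, equal depth, copies summed, length and GC trends removed, the longest transcript for levels, leaving out the 2 libraries with Y counts and leaving out each library. Ndufb1 was not analysed here. Counts cover all 37 members, and the values of 1 member are not reported here.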

Additional observations from a re-analysis of the deposited data

How the results depend on the processing

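Counts of members past the threshold moved mainly where they were near 0. By DESeq2 they were 1 for genotype in infarcted TRAP, 5 for genotype in sham TRAP, 3 for infarction in controls, 3 for genotype by surgery, 2 for genotype in total RNA and 5 for genotype by fraction. Without a low-count filter they were 2, 5, 3, 2, 7 and 11 in that order. With the groups of a comparison fitted alone they were 1, 0 and 0 for the first 3, and with length and GC trends removed 0 and 0 for genotype in sham and infarction in controls. With copies summed, genotype in sham had 2 and genotype by fraction 1. Without the libraries with Y counts they were 0 for genotype in sham and 6 for infarction in controls, and the members' medians were -0.095 for genotype in sham, -0.15 for infarction in controls, -0.29 for infarction in Salv cKO and -0.073 for genotype by surgery. At equal depth infarction in controls had 2. The shares of all genes past the threshold in these other settings are not given here, so these counts stand without a background.

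The median log2 change for infarction in Salv cKO was -0.28 without a filter. With length and GC trends removed the median was 1.996 for TRAP against total RNA and -0.48 for genotype by fraction.

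Leaving out 1 library gave 0 to 1 members and medians of -0.27 to -0.17 for genotype in infarcted TRAP, 0 to 3 and -0.051 to 0.13 in sham, 0 to 6 and -0.15 to 0.12 for infarction in controls, 12 to 19 and -0.44 to -0.26 in Salv cKO, 0 to 2 and -0.32 to -0.12 for genotype by surgery, 0 to 0 and 0.27 to 0.76 for total RNA, 35 to 35 and 2.71 to 2.95 for TRAP against total RNA, and 0 to 5 and -1.02 to -0.44 for genotype by fraction. A left-out library leaves 2 in its group, with the spread pooled over groups. For these fits too, the share of all genes past the threshold is not given here.

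No pairing by replicate number was seen: same-number libraries of different groups correlated at -0.157 to 0.114 in TRAP. Among infarcted libraries, TRAP and total RNA together, they correlated at -0.152 to 0.0734, and libraries of unlike number at -0.0862 to 0.149. With 3 libraries a group, these values cannot show that the samples were unpaired. With the replicate block the counts were 0, 1, 2, 19, 0, 0, 35 and 0 for the 8 comparisons in the order of the last list.

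Of 778 alternative values of 46 named member results, 677 kept direction and side of the threshold, 52 lost the call, 47 gained one and 2 changed sign: Ndufa4l2 in TRAP against total RNA, -0.64 with length and GC trends removed, and Ndufs1 there, which ran from -0.191 to 0.029 over the left-out libraries and was above 0 without total RNA Salv cKO library 1. Neither passed in the reported fit, and each passed in 1 of 8 other settings. The cause was not tested. The 3 libraries a group limit the precision, and values under 1 CPM are near the detection floor.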

Other observations

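Genes of the other respiratory complexes are given here for infarction against sham in Salv cKO hearts, where 7.56% of all genes rose and 10.6% fell. Of complex II, Sdhd (1.68, adjusted p = 5.19e-04) and Sdhc (0.63, adjusted p = 0.0152) rose, of 4 genes. Of complex III, Uqcrb rose by 0.63 on the log2 scale and Uqcrq fell by 0.73, of 9. These shares, 11.1% in either direction, are near those of all genes. Of complex IV, 4 of 13 rose, among them Cox5a from 37.8 to 190.2 CPM (2.33, adjusted p = 0.00392), and 4 fell, among them Cox8b from 6372 to 3245 CPM (-0.97, adjusted p = 3.28e-04) and Cox7a1 (-0.91, adjusted p = 0.0104). Of complex V, 2 of 15 rose and 4 fell, with Atp5o falling from 7474 to 3995 CPM (-0.90, adjusted p = 0.00294). The tests are edgeR's, as for complex I.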
